A study of Mus musculus with 19 samples.

Results

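MHC class I molecules show fragments of a cell's own proteins to CD8 T cells, and the genes described here make, cut, carry and load those fragments. They are the class I heavy chains H2-K1, H2-D1 and H2-T23, the shared light chain B2m, the peptide transporter subunits Tap1 and Tap2, the loading factor Tapbp, and the catalytic subunits of the immunoproteasome, Psmb8, Psmb9 and Psmb10. Members were taken as every probe annotated to one of these 10 symbols in the table of signals that were not normalized. This gave 15 probes, 2 each for H2-K1, H2-T23, B2m, Tapbp and Psmb10 and 1 for each other gene. All 15 passed the filter on dim probes, among 13945 probes tested, of which 13088 carried 1 of 9523 gene names.

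As background, proteins are degraded in the cytosol by the proteasome. Cells exposed to interferon gamma replace the catalytic subunits Psmb5, Psmb6 and Psmb7 of newly built proteasomes with Psmb8, Psmb9 and Psmb10. The Tap1 and Tap2 dimer pumps the peptides into the endoplasmic reticulum, where tapasin (Tapbp) holds an empty heavy chain and B2m beside the transporter until a peptide binds. The transactivator Nlrc5 and the factor Irf1 are known to drive transcription of these genes, and neutrophils are usually studied as killers of microbes rather than as presenting cells.

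The study measured RNA from mouse neutrophils on 19 single-colour Illumina arrays, 1 per preparation. NN were naive neutrophils of bone marrow (n = 7), G-MDSC were neutrophils from the spleens of tumour-bearing mice (granulocytic myeloid-derived suppressor cells, n = 4), TAN were neutrophils isolated from tumours (n = 3, numbered 1, 2 and 4) and SM16 were TANs obtained after treatment with SM16 (n = 5). SM16 inhibits Alk5, a kinase of the TGF-beta receptor, per the series' design text. All animals are labelled as a clonal mouse. The strain, age, tumour line, dose and duration of treatment and the sorting gate are not stated in the labels used here. They do not say whether the replicates are different animals, so p-values measure only the spread between these preparations.

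Levels below are log2 intensities after background correction and quantile normalization, with mean ± SD, and differences are log2 differences with their standard error from limma. Calls rest on p-values adjusted over all probes tested by Benjamini and Hochberg's method, with 0.05 as the limit. The probe of a pair with the higher mean over all arrays is called probe 1. Levels of different probes cannot be compared with each other.

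Facts of the whole series bear on what follows. Between 9599 and 12492 probes were detected per array. The lowest raw signal was 10.3 to 17.7 on the 4 G-MDSC arrays and NN replicates 6 and 7 and 47.5 to 65.5 elsewhere, so the arrays form 2 sets that the labels do not name. TAN replicates 1 and 2 correlated with each other at 0.991 across probes but with TAN replicate 4 at 0.863 and 0.873, while TAN replicate 4 correlated with the SM16 arrays at 0.957 to 0.976. The library labelled TAN replicate 4 is therefore also shown alone in each comparison with TAN. Of the 10 neutrophil markers tested, 10 were detected on every NN, G-MDSC and SM16 array and 9 on every TAN array. Ly6g had no probe among those tested. The summed linear level of the 10 was 401000 to 430000 on NN, 319000 to 349000 on G-MDSC, 178000 to 192000 on TAN and 176000 to 223000 on SM16 arrays. They include genes of granule proteins, with Camp at a mean of 15.55 on NN, 14.21 on G-MDSC, 9.66 on TAN and 10.65 on SM16 arrays. Ltf had means of 15.90, 15.56, 11.95 and 12.40 in the same order. The other markers did not all fall in this way. S100a8 stayed nearly level, at 15.81, 15.57, 15.74 and 15.77. Csf3r (14.5, 15.34, 13.06 and 14.32) and Cxcr2 (13.92, 14.74, 12.92 and 13.26) were higher on G-MDSC than on NN arrays.

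Markers of other cells also differed between the groups. The summed linear level of 6 macrophage and monocyte markers was 5950 to 12500 on NN, 6450 to 8350 on G-MDSC and 90400 to 154000 on SM16 arrays. On TAN replicates 1, 2 and 4 it was 20100, 26400 and 76200, and all 6 markers were detected on every array. The markers did not all move alike on TAN arrays. C1qa ran from 7.49 to 12.97 on TAN beside 8.45 to 9.70 on NN, and C1qc from 9.21 to 14.52 beside 10.69 to 11.96. C1qb, Adgre1, Mrc1 and Ms4a7 were higher on all TAN arrays than on all NN arrays. The sum of 7 dendritic markers, which include the class II genes H2-Aa, H2-Ab1 and Cd74, was 4720 to 9890 on NN, 41000 to 66000 on G-MDSC, 76500 to 103000 on TAN and 66700 to 87000 on SM16 arrays. Zbtb46, a factor that defines classical dendritic cells, was detected on 0 of 7 NN, 2 of 4 G-MDSC, 0 of 3 TAN and 1 of 5 SM16 arrays. Itgae, an integrin of a dendritic subset and of some T cells, was detected on 0 of 7 NN arrays and on every array of the other groups, and the chemokine receptor Ccr7 on 1 of 7 NN, 3 of 4 G-MDSC, 3 of 3 TAN and 0 of 5 SM16 arrays. The sum of 3 erythroid markers was 78400 to 90500 on NN, 2180 to 14500 on G-MDSC, 1000 to 1420 on TAN and 365 to 795 on SM16 arrays. That of 6 T and NK cell markers was 11400 to 13900, 3790 to 7780, 1240 to 3810 and 907 to 1850. On NN arrays Cd3d, with a mean of 13.55, made up most of this sum. Cd3e was detected on 2 of 7 NN arrays, Cd4 on 0 and Klrb1c on 4, while Cd3g and Nkg7 were detected on all 7. The 3 B cell markers summed to 1530 to 3560 on NN, 242 to 380 on TAN and 272 to 404 on SM16 arrays. On G-MDSC arrays their sum ran from 428 to 9640 with a median of 518. Among lymphocyte markers on G-MDSC arrays, Cd79a ran from 7.20 to 12.49 and Cd3e from 5.20 to 10.31. Cd3g ran from 5.28 to 10.5 and Nkg7 from 5.53 to 10.09 on these arrays. Of 5 epithelial and mesothelial markers, 0 were detected on any G-MDSC array, while their sum was 109 to 195 on NN, 2480 to 4940 on TAN and 2170 to 3280 on SM16 arrays. Such cells carry class I molecules or their RNA too, and their part in the values below was not tested. In RNA from a mixture, more cells of a type and more RNA per cell cannot be told apart.

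The stretches just before the starts of 5 members are shown because class I promoters carry a known module of short elements, and because Tap1 and Psmb9 are transcribed away from each other out of a shared stretch. Sequences are from RefSeq's windows on GRCm38.p6, which run from 250 bases before to 50 after a start and matched 9 of the 10 genes, all but Tap2. Each is printed 5′ to 3′ on the gene's strand and ends at the base before its start, and the Tap1 stretch reaches back to the start of Psmb9. Capitals mark matches on either strand to TTTCNNTTT (core of the interferon-stimulated response element), its shorter form TTTCNNTTC, GGGNNTTCC (kappa B core), ATTGG (Y box) or TGACG (the CRE-like core of the X box). The first 2 patterns differ in their last letter only, and the shorter form was added after the sequences were seen.
H2-K1, chr17:34000334-34000503, minus strand: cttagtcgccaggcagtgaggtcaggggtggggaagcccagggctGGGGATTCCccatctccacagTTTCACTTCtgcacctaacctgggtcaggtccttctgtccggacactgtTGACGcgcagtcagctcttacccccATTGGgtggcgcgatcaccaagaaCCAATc
H2-D1, chr17:35262894-35263093, plus strand: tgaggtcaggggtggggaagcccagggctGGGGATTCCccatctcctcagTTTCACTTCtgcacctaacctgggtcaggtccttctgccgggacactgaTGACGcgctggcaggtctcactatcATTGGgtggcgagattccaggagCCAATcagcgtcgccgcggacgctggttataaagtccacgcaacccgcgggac
H2-T23, chr17:36032702-36032871, minus strand: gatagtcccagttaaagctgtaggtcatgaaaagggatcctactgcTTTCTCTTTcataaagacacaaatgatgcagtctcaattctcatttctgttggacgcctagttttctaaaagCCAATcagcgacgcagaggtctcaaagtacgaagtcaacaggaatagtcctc
B2m, chr2:122147517-122147686, plus strand: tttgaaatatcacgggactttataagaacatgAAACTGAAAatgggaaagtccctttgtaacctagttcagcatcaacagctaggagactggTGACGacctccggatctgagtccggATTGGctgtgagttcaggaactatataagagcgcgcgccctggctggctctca
Tap1, chr17:34187331-34187555, plus strand: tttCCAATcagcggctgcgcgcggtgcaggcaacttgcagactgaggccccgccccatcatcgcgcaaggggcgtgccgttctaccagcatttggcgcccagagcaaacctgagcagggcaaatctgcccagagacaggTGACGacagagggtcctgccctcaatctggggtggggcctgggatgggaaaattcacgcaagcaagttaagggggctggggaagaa

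The Y box letters were found in the windows of 7 of the 9 genes, H2-K1, H2-D1, H2-T23, B2m, Tap1, Tapbp and Psmb9, and in 37.4% of all 32851 windows of the table. TGACG was found in 5 of the 9 (H2-K1, H2-D1, B2m, Tap1 and Psmb9) and in 20.8% of all windows. The kappa B core lay in H2-K1 and H2-D1 only and in 5.82% of all windows, and TTTCNNTTC lay in the same pair and in 7.52% of all windows. TTTCNNTTT was in H2-T23 and B2m and in 10.6% of all windows. The Psmb8 and Psmb10 windows held none of the patterns listed. H2-K1 has 2 windows in the table, and the second is printed. A match describes letters in the window and nothing about binding.

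Compared with naive marrow neutrophils, tumour neutrophils after SM16 had higher levels of 12 of the 15 probes and lower levels of 0. They covered the 3 heavy chains, B2m, Tap1 and the 3 immunoproteasome subunits, while Tap2 and both Tapbp probes were not called. In this comparison 29.9% of all probes were called higher and 32.5% lower. The median difference of the member probes was 1.31 log2, beside -0.039 for all probes tested. For all 12 the SM16 arrays lay above all NN arrays, as they did for 25.1% of all probes. With NN replicates 1 to 5, the naive arrays of the same set, 11 were called higher, beside 28.2% of all probes, and H2-T23 probe 1 was not (1.40 ± 0.59, adjusted p = 0.0511).

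TAN arrays had 9 probes called higher than NN and 3 called lower, beside 34.9% and 33.1% of all probes. This split came with the difference among the TAN arrays. When TAN replicate 4 was the only TAN array, 12 probes were called higher, beside 23.7% of all probes, and none lower. The median over the member probes was 0.36 log2 beside 0.054 for all probes, and for TAN replicate 4 by itself it was 1.47. With the naive arrays of the same set 8 were called higher, beside 32.9% of all probes, and H2-D1 was not (0.53 ± 0.27, adjusted p = 0.0986).

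G-MDSC arrays had 7 probes called higher than NN and 0 lower, beside 21.8% and 21.7% of all probes. The median was 0.84 log2 for the members and 0.0015 for all probes. Without any test, all 4 G-MDSC arrays lay above all 7 NN arrays for 10 of the 15 probes, as they did for 18% of all probes. The shared spread of the fit includes the TAN arrays. Fitted without TAN replicates 1 and 2, a setting chosen after the data were seen, 10 probes were called higher, beside 26.2% of all probes. With only NN replicates 6 and 7, the naive arrays of the same set, 6 were called higher, beside 11.5% of all probes. Scaling to a common median moved the median of all probes by 0.22 log2 in this comparison and the share of calls that were higher from 50% to 67.1%, and then called 12 member probes, beside 44.9% of all probes in either direction.

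**Figure D1:**
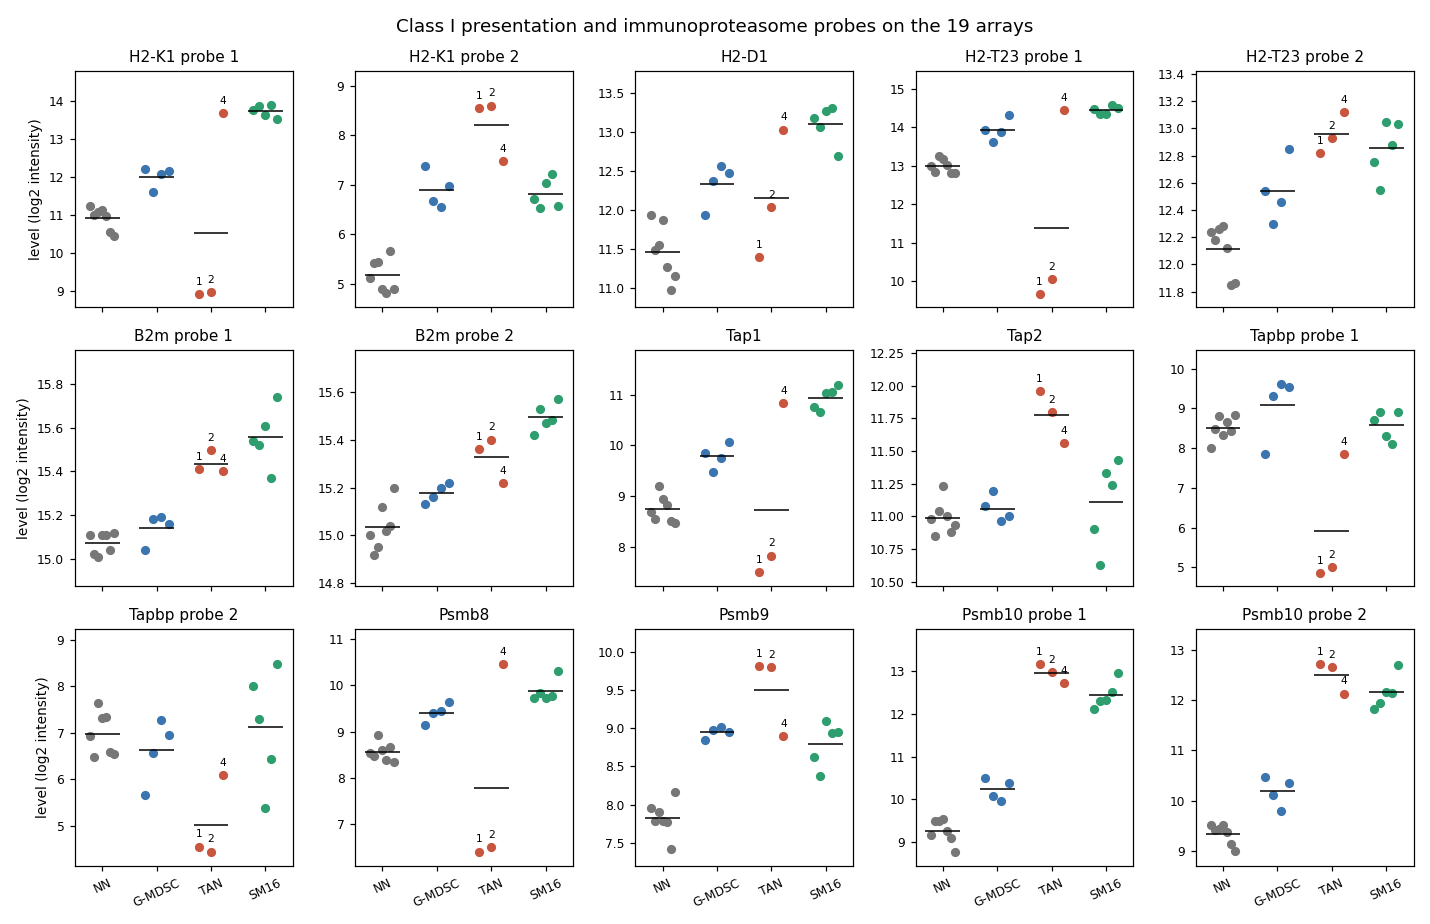
Level of each of the 15 member probes (log2 intensity, 1 panel per probe with its own axis) on the 7 NN, 4 G-MDSC, 3 TAN and 5 SM16 arrays. Points are arrays, black bars are group means and numbers mark the TAN replicates; replicates 1 and 2 of TAN lie below every other array for 6 probes, among them H2-K1 probe 1 and Psmb8.

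**Figure D2:**
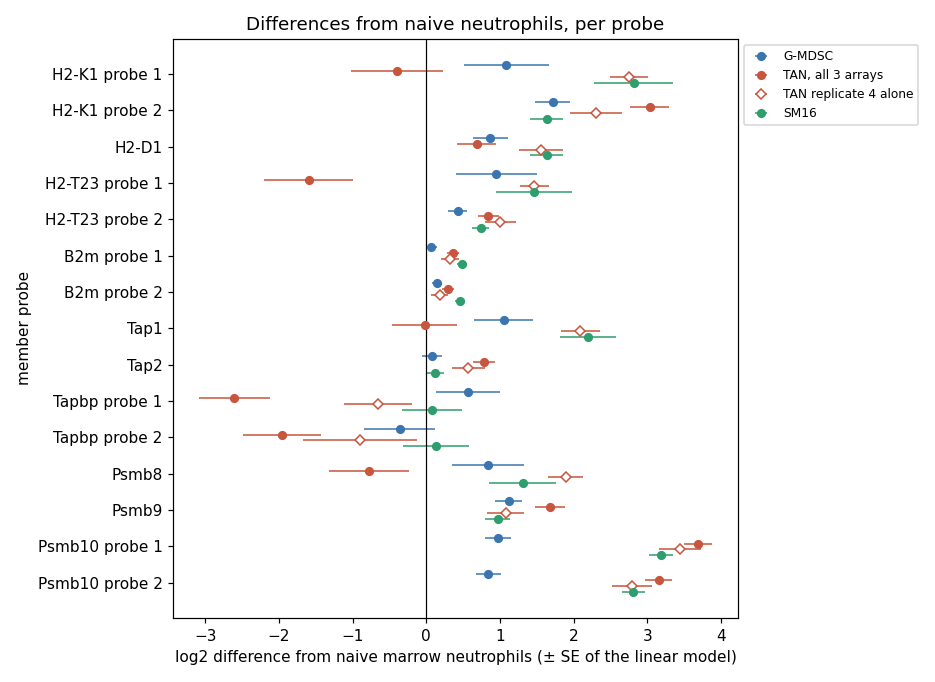
Log2 difference of each member probe from naive marrow neutrophils (x axis) for G-MDSC, for TAN with all 3 arrays, for TAN replicate 4 alone (open diamonds) and for SM16. Bars are the standard errors of the linear model; for H2-K1 probe 1 the TAN difference was -0.40, and that of TAN replicate 4 alone was 2.76.

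H2-K1 encodes the classical heavy chain K. Its probe 1 read 10.46 to 11.24 on the NN arrays with a median of 11.01, 12.20, 11.60, 12.09 and 12.16 on G-MDSC replicates 1 to 4, and 13.77, 13.87, 13.63, 13.90 and 13.53 on SM16 replicates 1 to 5. TAN replicates 1, 2 and 4 read 8.93, 8.98 and 13.68. The SM16 arrays were all above the G-MDSC arrays and those all above the NN arrays, whereas TAN replicates 1 and 2 lay below every other array and replicate 4 within the SM16 range. The level rose 7.03-fold in SM16 over NN (2.81 ± 0.53 log2, adjusted p = 1.21e-04). G-MDSC minus NN was 1.09 ± 0.57 (adjusted p = 0.133), and 1.09 ± 0.15 without TAN replicates 1 and 2 (adjusted p = 7.11e-06). TAN minus NN was -0.40 ± 0.63 (adjusted p = 0.589), and with TAN replicate 4 alone it was 2.76 ± 0.26 (adjusted p = 8.41e-08).

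The second H2-K1 probe is dim and was detected on 2 of 7 NN arrays and on every other array. It read 4.82 to 5.67 on NN with a median of 5.12, and 7.38, 6.68, 6.55 and 6.97 on G-MDSC. The TAN arrays read 8.55, 8.60 and 7.48, and SM16 read 6.72, 6.53, 7.03, 7.21 and 6.57. Every array of the other groups was above every NN array, and the TAN arrays were the highest. This probe was called higher than NN in G-MDSC (1.72 ± 0.24 log2), TAN (3.03 ± 0.27) and SM16 (1.63 ± 0.23), with adjusted p of 7.56e-06, 6.86e-09 and 2.75e-06.

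H2-D1 encodes the classical heavy chain D. It read 10.98 to 11.94 on NN with a median of 11.49 and 11.94, 12.38, 12.57 and 12.47 on G-MDSC. TAN replicates 1, 2 and 4 read 11.40, 12.04 and 13.03, and SM16 read 13.18, 13.07, 13.27, 13.31 and 12.69. All SM16 arrays were above all NN and G-MDSC arrays, whereas the TAN arrays ran from the NN range into the SM16 range. The rise over NN was 3.10-fold in SM16 (1.63 ± 0.22, adjusted p = 2.58e-06) and 1.83-fold in G-MDSC (0.87 ± 0.24, adjusted p = 0.00595). TAN minus NN was called at 0.69 ± 0.26 (adjusted p = 0.0274), but it was 0.25 without TAN replicate 4 (adjusted p = 0.341) and 1.56 ± 0.30 with that array alone (adjusted p = 3.15e-04).

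H2-T23 encodes Qa-1, a nonclassical heavy chain that shows a narrow set of peptides and is read by NKG2 receptors of NK and T cells. Its probe 1 read 12.81 to 13.26 on NN with a median of 12.99, 13.93, 13.61, 13.87 and 14.31 on G-MDSC, and 14.47, 14.35, 14.35, 14.58 and 14.50 on SM16. TAN replicates 1, 2 and 4 read 9.68, 10.05 and 14.45. As for H2-K1 probe 1, the first 2 TAN arrays were below all others. SM16 minus NN was 1.47 ± 0.51 (2.76-fold, adjusted p = 0.0179). TAN minus NN was called lower at -1.59 ± 0.61 (adjusted p = 0.0257), lost that call without TAN replicate 1 (-0.73, adjusted p = 0.303) or 2 (-0.92, adjusted p = 0.232), and with TAN replicate 4 alone was called higher at 1.47 ± 0.20 (adjusted p = 9.07e-06).

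H2-T23 probe 2 gave another account of TAN. It read 11.85 to 12.28 on NN with a median of 12.18, 12.54, 12.30, 12.46 and 12.85 on G-MDSC, 12.82, 12.93 and 13.12 on TAN, and 12.75, 12.55, 13.05, 12.88 and 13.03 on SM16. All arrays of the other 3 groups were above all NN arrays, and TAN and SM16 overlapped. It rose by 0.84 ± 0.14 log2 in TAN (1.79-fold, adjusted p = 3.03e-05), by 0.74 ± 0.12 in SM16 (1.67-fold, adjusted p = 1.97e-05) and by 0.43 ± 0.13 in G-MDSC (1.34-fold, adjusted p = 0.0106), the last not called without G-MDSC replicate 4 (0.32, adjusted p = 0.0642). Mouse class I heavy chain genes are near-identical in long stretches, so a probe of this family may also read its relatives, which was not tested.

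B2m, the light chain that every class I molecule needs, gave signals close to the upper end of the intensity range on every array. Its raw signals were 31.1% to 78.3% of the brightest probe of their array. Probe 1 read 15.01 to 15.12 on NN with a median of 15.11, 15.04, 15.18, 15.19 and 15.16 on G-MDSC, 15.41, 15.50 and 15.40 on TAN, and 15.54, 15.52, 15.61, 15.37 and 15.74 on SM16. NN and G-MDSC overlapped, and both lay below all TAN and SM16 arrays. The rise over NN was 1.40-fold in SM16 (0.48 ± 0.068, adjusted p = 3.68e-06) and 1.29-fold in TAN (0.36 ± 0.080, adjusted p = 5.49e-04). Probe 2 rose by 0.46 ± 0.067 in SM16 and by 0.29 ± 0.079 in TAN, the latter called with all TAN arrays but not with replicate 4 alone (0.18 ± 0.12, adjusted p = 0.22). Its levels were 15.03 ± 0.099 on NN, 15.18 ± 0.041 on G-MDSC, 15.33 ± 0.098 on TAN and 15.50 ± 0.056 on SM16 arrays.

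Tap1 and Tap2, the subunits of the peptide transporter, had unlike patterns. Tap1 read 8.47 to 9.21 on NN with a median of 8.68, 9.86, 9.47, 9.76 and 10.07 on G-MDSC, and 10.76, 10.65, 11.03, 11.06 and 11.19 on SM16. The TAN arrays read 7.51, 7.83 and 10.83. The SM16 arrays were above all G-MDSC arrays and these above all NN arrays, with the first 2 TAN arrays below every other array. Tap1 rose 4.58-fold in SM16 over NN (2.20 ± 0.38, adjusted p = 3.78e-05) and 2.07-fold in G-MDSC (1.05 ± 0.40, adjusted p = 0.0408). The G-MDSC call was lost when any of its 4 arrays was left out (adjusted p = 0.0508 to 0.105), and without TAN replicates 1 and 2 it was 1.05 ± 0.15 (adjusted p = 1.27e-05). TAN minus NN was -0.019 ± 0.44 (adjusted p = 0.973) with all arrays and 2.09 ± 0.26 with TAN replicate 4 alone (adjusted p = 2.96e-06).

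Tap2 read 10.85 to 11.23 on NN with a median of 10.98, 11.08, 11.19 and 10.96 on G-MDSC replicates 1 to 3 with replicate 4 between the last and the first, 11.96, 11.80 and 11.56 on TAN, and 10.90, 10.63, 11.33, 11.24 and 11.43 on SM16. The 3 TAN arrays were above every other array, and the other groups overlapped. It was called higher than NN in TAN (0.79 ± 0.15, 1.73-fold, adjusted p = 1.26e-04). The difference from NN was 0.12 ± 0.13 in SM16 (adjusted p = 0.437) and 0.072 ± 0.14 in G-MDSC (adjusted p = 0.704). For TAN replicate 4 alone the difference was 0.57 ± 0.22 (adjusted p = 0.0397).

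Tapbp was not called between SM16 or G-MDSC and NN by either probe. Probe 1 read 8.01 to 8.83 on NN with a median of 8.48, 7.85, 9.31, 9.61 and 9.53 on G-MDSC and 8.70, 8.92, 8.31, 8.11 and 8.90 on SM16. TAN replicates 1, 2 and 4 read 4.86, 5.00 and 7.85, and the probe was detected on replicate 4 only. Both probes were called lower in TAN than in NN, by -2.60 ± 0.48 (adjusted p = 8.74e-05) and -1.96 ± 0.53 (adjusted p = 0.00283). With TAN replicate 4 alone the differences were -0.66 ± 0.47 (adjusted p = 0.263) and -0.90 ± 0.77 (adjusted p = 0.358). Probe 2 ran from 5.38 to 8.48 on the SM16 arrays.

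Of the immunoproteasome subunits, Psmb10 had the largest differences from naive cells in TAN and SM16, and Psmb9 in G-MDSC. Psmb10 replaces the trypsin-like subunit Psmb7. Probe 1 read 8.77 to 9.54 on NN with a median of 9.25, 10.50, 10.07, 9.97 and 10.39 on G-MDSC, 13.17, 12.97 and 12.71 on TAN, and 12.12, 12.29, 12.33, 12.52 and 12.96 on SM16. NN, G-MDSC and the tumour arrays formed 3 steps without overlap, and TAN and SM16 overlapped. It rose 12.9-fold in TAN (3.69 ± 0.19, adjusted p = 2.90e-12), 9.09-fold in SM16 (3.18 ± 0.16, adjusted p = 1.13e-12) and 1.96-fold in G-MDSC (0.97 ± 0.17 log2, adjusted p = 1.08e-04). Probe 2 gave 8.90-fold, 7.02-fold and 1.79-fold. The rise over NN was 10.9-fold by probe 1 on TAN replicate 4 alone and 6.90-fold by probe 2, both called.

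Psmb8, which replaces the chymotrypsin-like Psmb5, read 8.34 to 8.93 on NN with a median of 8.53, 9.13, 9.40, 9.45 and 9.63 on G-MDSC and 9.72, 9.83, 9.72, 9.77 and 10.30 on SM16. The TAN arrays read 6.40, 6.50 and 10.46. G-MDSC arrays were all above NN and SM16 arrays all above G-MDSC, while the TAN arrays held both the lowest levels and the highest. It rose 2.47-fold in SM16 over NN (1.31 ± 0.46, adjusted p = 0.0176), a call lost with scaling to a common median (1.07, adjusted p = 0.0554). G-MDSC minus NN was 0.84 ± 0.49 (adjusted p = 0.176), and 0.84 ± 0.14 without TAN replicates 1 and 2 (adjusted p = 5.15e-05). TAN minus NN was -0.78 ± 0.54 (adjusted p = 0.207), and 1.89 ± 0.24 with TAN replicate 4 alone (adjusted p = 3.07e-06).

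Psmb9, which replaces the caspase-like Psmb6, read 7.42 to 8.16 on NN with a median of 7.79 and 8.85, 8.97, 9.01 and 8.95 on G-MDSC. TAN read 9.81, 9.80 and 8.90, and SM16 read 8.62, 8.38, 9.09, 8.94 and 8.95. Every array of the other groups was above every NN array, and G-MDSC and SM16 overlapped. The rise over NN was 3.19-fold in TAN (1.68 ± 0.20, adjusted p = 5.34e-07), 2.17-fold in G-MDSC (1.12 ± 0.18, adjusted p = 4.68e-05) and 1.96-fold in SM16 (0.97 ± 0.17 log2, adjusted p = 5.41e-05). On TAN replicate 4 alone it was 2.11-fold (1.08 ± 0.25, adjusted p = 0.00172).

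To ask whether the 2 forms of each catalytic subunit moved unequally, the log2 level of the constitutive form was subtracted on each array, and the change of that difference was tested with exact two-sided permutation tests, adjusted over 12 tests. Psmb10 minus Psmb7 was higher than in NN by 3.04 in SM16 (adjusted p = 0.0145), by 1.53 in G-MDSC (adjusted p = 0.0145) and by 5.06 in TAN (adjusted p = 0.0334). In TAN part of this came with a low Psmb7 (9.92 ± 1.47, and 11.61 on TAN replicate 4 beside 11.29 ± 0.090 in NN), and with TAN replicate 4 alone the change was 3.13. Psmb8 minus Psmb5 was higher by 1.13 in SM16 and by 1.79 in G-MDSC (exact permutation, adjusted p = 0.0145 for each). In G-MDSC part of each change came with a lower constitutive form. Psmb5 was 7.34 ± 0.15 against 8.28 ± 0.27 in NN. Psmb7 was 10.73 ± 0.25 in G-MDSC against 11.29 ± 0.090, and Psmb6 was 10.91 ± 0.036 against 11.52 ± 0.16. Psmb9 minus Psmb6 was higher by 1.72 in G-MDSC (exact permutation, adjusted p = 0.0145), whereas its change in SM16 was 0.038 (adjusted p = 0.818), since Psmb6 was 12.45 ± 0.17 in SM16 against 11.52 ± 0.16 in NN. In TAN the change of Psmb9 minus Psmb6 was 0.94 (exact permutation, adjusted p = 0.0571), and 0.25 with TAN replicate 4 alone. That of Psmb8 minus Psmb5 was -0.46 (exact permutation, adjusted p = 0.527), and 1.38 with TAN replicate 4 alone. No pair was called between SM16 and TAN (exact permutation, adjusted p = 0.143 to 0.257), where the smallest unadjusted p the design allows is 0.0357. Every called change from NN had the smallest unadjusted p its permutation test allows. That was 0.00253 for SM16, 0.00606 for G-MDSC and 0.0167 for TAN. These p-values follow the group sizes and do not rank the changes.

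The TAN arrays split the members into those low on replicates 1 and 2 and those not. For 6 of the 15 probes both arrays lay below all 17 others, as they did for 17.2% of all probes, and for 4 both lay above, as for 22.6% of all probes. The low ones were H2-K1 probe 1, H2-T23 probe 1, Tap1, Psmb8 and both Tapbp probes. The high ones were H2-K1 probe 2, Tap2, Psmb9 and Psmb10 probe 1. Psmb9 and Tap1 start 225 bases apart on opposite strands, in the shared stretch printed above, and the annotation places Psmb8 after Tap1 and Tap2 after Psmb8. On these 2 arrays Tap1 and Psmb8 were below and Psmb9 and Tap2 above every other array.

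Probes of the same gene came apart on the same arrays. Probe 1 minus probe 2 of H2-K1 was 0.37 and 0.37 on TAN replicates 1 and 2 and 4.82 to 7.34 on the 17 others. For H2-T23 it was -3.15 and -2.88 against 0.65 to 1.80. For Psmb10 it was 0.45 and 0.32 against -0.35 to 0.57, for B2m 0.05 and 0.10 against -0.11 to 0.18, and for Tapbp 0.30 and 0.56 against 0.43 to 2.93. Levels of H2-K1, H2-T23, Tap1, Tapbp and Psmb8 on TAN replicates 1 and 2 thus depended on the probe read or rest on 1 probe or on probes that were both low. The sequences of the array probes were not used here, and what sets the low probes apart was not tested.

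**Figure D3:**
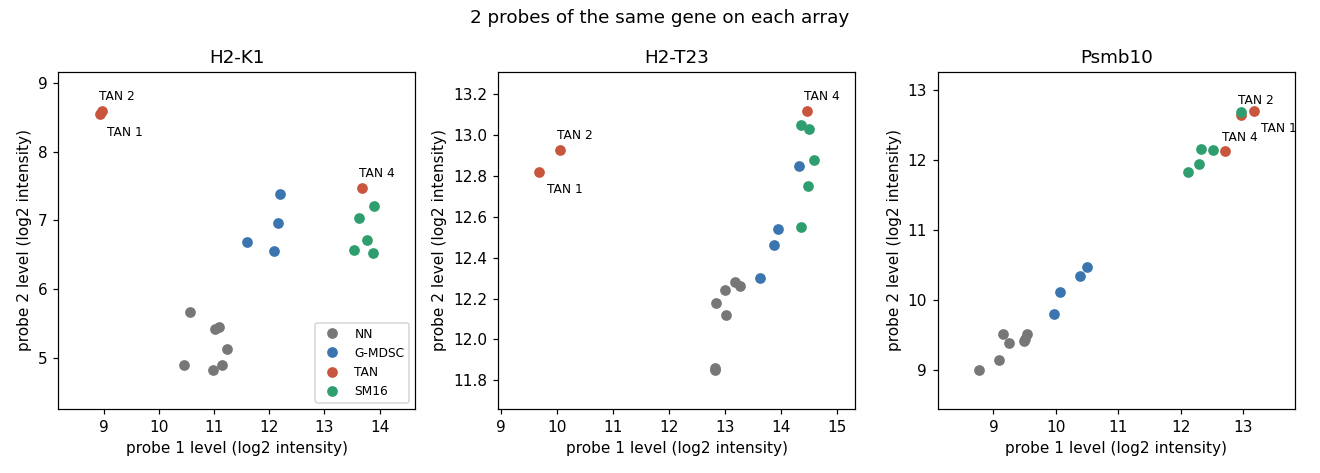
Probe 2 against probe 1 (log2 intensity on both axes) for H2-K1, H2-T23 and Psmb10 on the 19 arrays, coloured by group, with TAN replicates 1, 2 and 4 named. For H2-K1 and H2-T23 replicates 1 and 2 lie to the left of all other arrays by probe 1 but not low by probe 2, while for Psmb10 both probes place them with the other tumour arrays.

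SM16 was compared with TAN to ask how tumour neutrophil preparations differ after Alk5 inhibition. Macrophage and monocyte markers also differed between these groups, as given above, and their part in the differences was not tested. With all TAN arrays 7 member probes were called higher in SM16 and 4 lower, beside 20.1% and 25.3% of all probes. The higher ones were H2-K1 probe 1 (3.21 ± 0.67), H2-T23 probe 1 (3.06 ± 0.64), both Tapbp probes (2.69 ± 0.51 and 2.09 ± 0.56), Tap1 (2.21 ± 0.47), Psmb8 (2.08 ± 0.57) and H2-D1 (0.95 ± 0.28). The lower ones were H2-K1 probe 2 (-1.40 ± 0.28), Psmb9 (-0.71 ± 0.21), Tap2 (-0.67 ± 0.16) and Psmb10 probe 1 (-0.50 ± 0.20). With TAN replicate 4 as the only TAN array 0 member probes were called, beside 3.5% of all probes in either direction. In that fit 488 of all 13945 probes were called and 2411 had an unadjusted p under 0.05, and the lone TAN array was assumed to vary like the other groups. The differences were then 0.058 ± 0.26 for H2-K1 probe 1, -0.0029 ± 0.21 for H2-T23 probe 1, 0.10 ± 0.27 for Tap1, 0.076 ± 0.31 for H2-D1 and -0.59 ± 0.24 for Psmb8. Other probes kept the sign they had with all TAN arrays, at -0.67 ± 0.36 for H2-K1 probe 2, -0.45 ± 0.23 for Tap2, and 0.74 ± 0.48 and 1.04 ± 0.79 for the Tapbp probes. Without any test, all SM16 arrays lay below all 3 TAN arrays for H2-K1 probe 2 and Tap2, as for 14.9% of all probes, and above them for Tapbp probe 1 and B2m probe 2, as for 7.59% of all probes. TAN replicate 4 lay within the range of the 5 SM16 arrays for 9 of the 15 member probes and for 53.2% of all probes. Left out singly, TAN replicate 1 or 2 left 7 calls (beside 3315 and 3456 of all probes), without those of H2-D1, Psmb8, Psmb9 and Psmb10 probe 1. Leaving out TAN replicate 4 gave 12 calls. Over the fits that left out 1 array, up to 8631 of all probes were called. Psmb10 probe 1 also lost its call without any of SM16 replicates 1 to 4 (adjusted p = 0.0588 to 0.107).

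Against G-MDSC, TAN arrays had 7 member probes called higher and 4 lower, beside 32.9% and 30.1% of all probes. Psmb10 showed the largest difference of the 15 that held with TAN replicate 4 alone, 2.72 ± 0.21 with all arrays (6.57-fold, adjusted p = 5.18e-09) and 2.48 ± 0.30 with that array (5.56-fold, adjusted p = 6.35e-06). With TAN replicate 4 alone 6 probes were called higher, beside 21% of all probes, namely H2-K1 probe 1 (1.67 ± 0.27), Tap1 (1.04 ± 0.27), Psmb8 (1.05 ± 0.25), H2-T23 probe 2 (0.58 ± 0.22) and both Psmb10 probes. The first 3 of these had negative differences with all TAN arrays (-1.49, -1.07 and -1.62).

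SM16 arrays had 7 probes called higher than G-MDSC and 0 lower, beside 28.8% and 31.2% of all probes. They were both Psmb10 probes (2.21 ± 0.18 and 1.97 ± 0.18), H2-K1 probe 1 (1.73 ± 0.61), Tap1 (1.15 ± 0.43), H2-D1 (0.76 ± 0.26) and both B2m probes (0.41 ± 0.078 and 0.32 ± 0.076), of which B2m had a negative sign with scaling to a common median. With the array set as a block, 3 of these calls were lost, those of H2-K1 probe 1 (1.14, adjusted p = 0.419), Tap1 (0.80, adjusted p = 0.423) and H2-D1 (0.21, adjusted p = 0.729), and median scaling left H2-D1 at 0.098 (adjusted p = 0.753). Leaving out 1 array also ended the calls of H2-D1 (without G-MDSC replicate 1, adjusted p = 0.0546), H2-K1 probe 1 (without G-MDSC replicate 2, 0.0565) and Tap1 (without G-MDSC replicate 2 or 3 or SM16 replicate 5, 0.0533 to 0.0734). Fitted without TAN replicates 1 and 2, 10 were called higher, beside 32.5% of all probes, with H2-T23 probe 1 (0.52 ± 0.13), H2-T23 probe 2 (0.31 ± 0.13) and Psmb8 (0.47 ± 0.15) added. All G-MDSC arrays are of 1 array set and all SM16 and TAN arrays of the other, so these 2 comparisons and the sets cannot be told apart without the naive arrays. Scaling to a common median moved the median of all probes by -0.32 log2 in both comparisons. In SM16 minus G-MDSC it then called 5 member probes, beside 60.7% of all probes in either direction. Both Psmb10 probes stayed higher, and Tap2 (-0.63), Psmb9 (-0.62) and H2-T23 probe 2 (-0.35) were called lower in SM16. The calls of H2-K1 probe 1, Tap1, H2-D1 and both B2m probes were lost. The share of calls that were higher moved from 52.2% to 35.3% in TAN minus G-MDSC and from 48% to 33.5% in SM16 minus G-MDSC.

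Other genes of the pathway were grouped by role. Of 11 other class I heavy chain genes tested, 6 were called higher and 2 lower in both TAN and SM16 against NN, and 6 higher and 1 lower in G-MDSC. Of all probes, 34.9% were called higher and 33.1% lower in TAN, 29.9% and 32.5% in SM16, and 21.8% and 21.7% in G-MDSC. Fcgrt, the Fc receptor that recycles IgG and albumin, rose 20.1-fold in SM16 (14.63 ± 0.28 against 10.31 ± 0.59, adjusted p = 5.17e-11) and 4.66-fold in TAN (adjusted p = 7.86e-06). H2-M3, which shows formylated bacterial peptides, rose 10.8-fold in SM16 (adjusted p = 1.15e-09) and 2.76-fold in G-MDSC (adjusted p = 3.75e-04). Its levels on TAN replicates 1, 2 and 4 were 9.41, 9.59 and 11.5, beside 7.68 to 8.49 on NN. Hfe, a regulator of iron uptake, rose 10.3-fold in SM16, 6.76-fold in TAN and 4.22-fold in G-MDSC. H2-M2 was not well above background on any NN array and was at least 10.8-fold higher in G-MDSC, at least 7.60-fold in TAN and at least 4.27-fold in SM16. H2-Q8 read 6.84 and 6.46 on TAN replicates 1 and 2 and 11.41 on replicate 4, beside 11.35 to 11.99 on NN.

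Of 7 other peptide loading genes, 4 were called higher than NN in SM16 and 0 lower, 4 higher and 3 lower in TAN, and 2 higher and 0 lower in G-MDSC. The shares of all probes called higher and lower were 29.9% and 32.5%, 34.9% and 33.1%, and 21.8% and 21.7%. Tapbpl, a tapasin-like factor that edits peptides, rose 3.82-fold in TAN (1.93 ± 0.18, adjusted p = 1.64e-08), 3.38-fold in SM16 and 1.78-fold in G-MDSC. The chaperone Hspa5 rose 4.69-fold in G-MDSC and 2.57-fold in SM16. Its levels on TAN replicates 1, 2 and 4 were 7.29, 7.45 and 7.38, beside a mean of 5.83 on NN. Sec61b, a subunit of the channel into the endoplasmic reticulum, was called lower in TAN (-3.77 ± 0.63, adjusted p = 2.97e-05), with 5.94 and 6.29 on TAN replicates 1 and 2 and 10.90 on replicate 4. Pdia3, which holds class I chains during folding, read 8.79 and 9.26 on the same 2 arrays and 12.08 on replicate 4, beside 11.50 to 11.81 on NN. Of the 7, TAN replicate 4 alone had 4 called higher than NN and 1 lower.

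Among 8 proteasome activators and assembly factors, 4 were called higher and 1 lower than NN in SM16. In TAN 4 were called higher and 2 lower, and in G-MDSC 1 and 4. Of all probes 29.9% and 32.5%, 34.9% and 33.1%, and 21.8% and 21.7% were called in these comparisons. With scaling to a common median 1 was called higher and 1 lower in G-MDSC. Psme1, a subunit of the PA28 activator induced by interferon gamma, read 12.04 to 12.35 on NN, 12.80, 12.49, 12.54 and 12.62 on G-MDSC, 13.49, 13.42 and 13.22 on TAN, and 13.09 to 13.64 on SM16. It rose 2.26-fold in TAN (adjusted p = 3.66e-08), 2.21-fold in SM16 (adjusted p = 3.44e-09) and 1.33-fold in G-MDSC (adjusted p = 0.00344). Its partner Psme2 read 4.49 and 4.83 on TAN replicates 1 and 2 and 9.85 on replicate 4, beside 8.77 to 9.46 on NN. Psme3, the nuclear activator, fell in all 3 groups, by -1.05 ± 0.12 log2 in TAN, -0.81 ± 0.10 in SM16 and -1.05 ± 0.11 in G-MDSC.

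Of 12 constitutive core subunits of the proteasome, 7 were called higher and 1 lower than NN in SM16, 6 and 3 in TAN, and 1 and 4 in G-MDSC, with medians of 0.51, 0.17 and -0.14 log2. Of all probes 29.9% and 32.5%, 34.9% and 33.1%, and 21.8% and 21.7% were called in these comparisons. With scaling to a common median the G-MDSC median was 0.34, with 3 called higher and 1 lower. Psmb1, a noncatalytic subunit, rose 8.09-fold in TAN (adjusted p = 9.17e-13), 6.79-fold in SM16 and 5.71-fold in G-MDSC, with 8.74 to 9.43 on NN and 11.55 to 12.33 on all other arrays. In G-MDSC Psmb5 fell by -0.95 ± 0.22 (adjusted p = 0.0017), Psmb3 by -0.68 ± 0.10 and Psmb6 by -0.60 ± 0.11.

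Of 22 regulators and interferon signalling genes, 15 were called higher than NN in G-MDSC and 0 lower, 11 higher and 5 lower in TAN, and 9 higher and 6 lower in SM16, beside 21.8% and 21.7%, 34.9% and 33.1%, and 29.9% and 32.5% of all probes. Nlrc5, the class I transactivator, read 5.63 to 6.79 on NN with a median of 5.79, 9.69, 8.62, 8.26 and 8.91 on G-MDSC, 10.68, 10.49 and 10.82 on TAN, and 10.11, 10.44, 10.79, 10.98 and 10.73 on SM16. NN, G-MDSC and the tumour arrays did not overlap, and TAN and SM16 did. It rose 24-fold in TAN (4.58 ± 0.29, adjusted p = 5.47e-11), 23.1-fold in SM16 (4.53 ± 0.25, adjusted p = 3.22e-12) and 6.90-fold in G-MDSC (2.79 ± 0.26, adjusted p = 3.88e-08). Socs3, an inhibitor of cytokine signalling, rose 25.6-fold in TAN, 18.5-fold in SM16 and 15.9-fold in G-MDSC. Irf1 rose 5.08-fold in SM16 (adjusted p = 1.95e-13), and TAN replicate 4 read 15.03 beside a mean of 12.96 on NN. Irf7 rose 6.54-fold in TAN (adjusted p = 1.01e-08) and 3.75-fold in G-MDSC (adjusted p = 6.79e-07). Ifngr1, a chain of the interferon gamma receptor, read 4.89 and 4.96 on TAN replicates 1 and 2 and 9.94 on replicate 4, beside 9.43 to 9.94 on NN and 10.90 to 11.72 on G-MDSC.

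All 10 tested genes of the list of guanylate-binding proteins and GTPases induced by interferon gamma were called higher than NN in TAN and in SM16, and 9 in G-MDSC, with 0 lower and medians of 3.17, 2.84 and 1.97 log2. Of all probes 34.9%, 29.9% and 21.8% were called higher in these comparisons. With scaling to a common median 10, 9 and 9 were called higher, beside 8561, 8377 and 6268 of all 13945 probes called in either direction. Gbp5, which helps to rupture vacuoles of microbes, was not well above background on any NN array. It read 7.18, 6.95, 7.28 and 7.55 on G-MDSC, 10.02, 10.07 and 10.63 on TAN, and 9.79 to 10.54 on SM16, at least 3.47-fold, 27.7-fold and 26.9-fold higher than NN. Gbp3 rose 27.5-fold in SM16, 18.5-fold in TAN and 11.9-fold in G-MDSC. In SM16 minus TAN 20.1% of all probes were called higher and 25.3% lower. Between SM16 and TAN 0 of the 10 were called higher and 1 lower, Ciita, the class II transactivator (-1.65 ± 0.25, adjusted p = 1.31e-04), a call not made with TAN replicate 4 alone (-1.31, adjusted p = 0.0539).

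**Figure D4:**
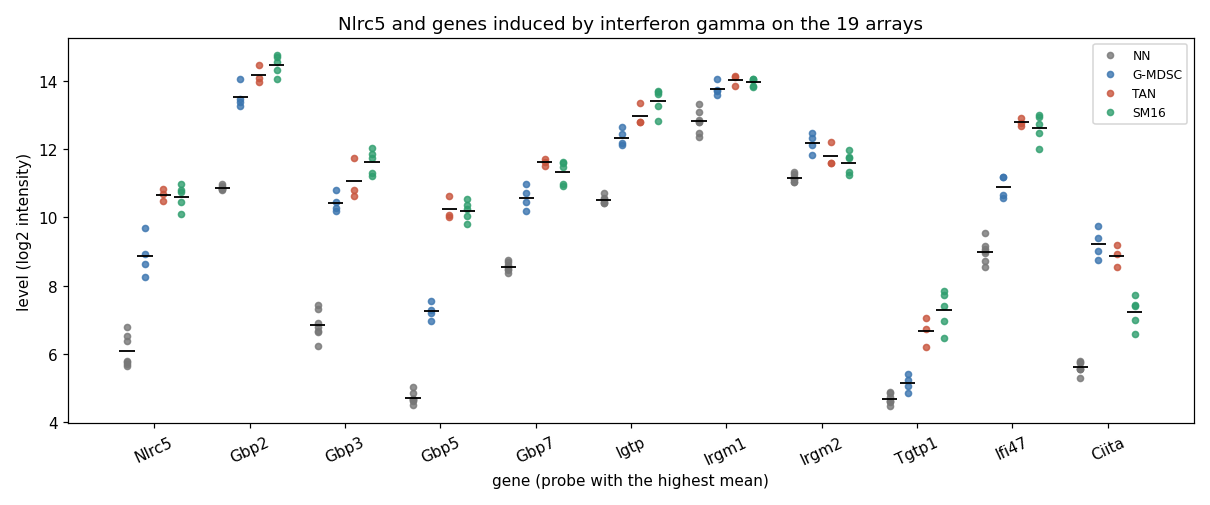
Level (log2 intensity) of Nlrc5 and of the 10 tested guanylate-binding and GTPase genes on the 19 arrays, each gene by its probe with the highest mean. Points are arrays, coloured by group, and black bars are group means; Nlrc5 lies at 5.63 to 6.79 on NN and at 10.11 to 10.98 on TAN and SM16 arrays.

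Over all 19 arrays the 45 pairs of members, each gene by its brighter probe, correlated at -0.78 to 0.978 with a median of 0.461. Over the 17 arrays without TAN replicates 1 and 2 the range was -0.322 to 0.979 and the median 0.795. The named genes most like the members' mean over 19 arrays were Bcl2l11 (Pearson r = 0.977), Ifi30 (0.964), Ggct (0.962), Tnfaip2 (0.962) and Gbp3 (0.96). Over the 17 arrays they were Nupr1 (0.983), Calhm6 (0.98), Trex1 (0.978), H2-Q5 (0.978) and Fcgr4 (0.976), of which the last 2 fell to 0.631 and 0.634 over all 19. The arrays share a platform and normalization and fall into 4 groups, so these values only describe likeness.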

How the data were processed

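RNA of the 19 preparations was labelled with biotin after amplification, per the labels' protocols. The labels' treatment and extraction protocols describe fixed cervical biopsies, so nothing was taken from them. The submitters' processing notes name GenomeStudio, with no version. The deposited table of probe intensity holds 25697 probes on a linear scale without normalization, with a deposited detection p-value beside each signal. The authors also deposited a normalized intensity table of 17004 probes, used as an alternative.

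The signals that were not normalized were processed in R 4.3.3 by the neqc function from limma 3.58.1 (background from the detection p-values, offset 16, quantile normalization, log2). Probes with a detection p under 0.01 on 3 or more arrays were tested, each separately, in 1 limma model of 4 groups over 19 arrays (15 residual degrees of freedom, variance trend), with 6 differences, two-sided, and Benjamini-Hochberg adjustment over the 13945 probes. Calls need an adjusted p under 0.05. Of these probes 857 had no gene name at hand. "At least" folds set the dim group, on each array, to the lowest level of a detected probe or its own level if higher. The number of arrays limits the precision.

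All 15 member probes are described. Of each other list, up to 4 called genes per comparison with the largest difference are named, by the brightest probe, and the 5 genes most like the members. The members, lists and rules were chosen with earlier results of these data known. Subunit differences used exact permutation tests. Calls were tested on simulated data with 200 changed probes. Alternatives were median scaling, no background correction, the authors' table, no filter, fits of 2 groups, blocks for replicate number and array set, leaving out single G-MDSC, TAN or SM16 arrays, and TAN replicate 4 alone. Naive arrays of the same set only, and fits without TAN replicates 1 and 2 outside the TAN comparisons, were added after seeing the data. One item withheld for evaluation is not reported here.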

Additional observations from a re-analysis of the deposited data

Results flagged for a closer look

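Psmb8 was flagged on SM16 replicate 5, which read 10.3 log2 beside 9.83 on the nearest of the 5 SM16 arrays, a gap of 0.815 of the group's range. Of 45 groups of 4 to 10 arrays examined 1 was flagged, and chance flags about 1 in 20. Tap1, Tap2, both B2m probes, Tapbp probe 2 and both Psmb10 probes were also highest on that array among the SM16 arrays (11.19, 11.43, 15.74, 15.57, 8.48, 12.96 and 12.69), and H2-K1 probe 1 and H2-D1 were lowest on it (13.53 and 12.69). What sets this array apart was not tested.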

How the results depend on the processing

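Member probes called numbered 11 and 12 for SM16 against TAN and against NN, 12 for TAN against NN, 7 for G-MDSC against NN, and 11 and 7 for TAN and SM16 against G-MDSC. Fits of the 2 groups alone called 6 in SM16 minus TAN (3002 of all probes) and 7 in TAN minus G-MDSC. TAN replicate 4 alone left 0 and 6 in these (488 and 5819 of all probes). The array set as a block left 5 in TAN minus G-MDSC and 4 in SM16 minus G-MDSC (5405 and 4694 of all probes). Median scaling called 12 in G-MDSC minus NN, and naive arrays of the same set left 3463 of all probes there. Single G-MDSC, TAN and SM16 arrays were also left out in turn, but no NN array was. This gave, in the same order, 7 to 12, 12 to 12, 11 to 14, 5 to 6, 7 to 13 and 5 to 8 member probes. Of all probes it gave 3315 to 8631, 8300 to 8402, 8287 to 10227, 5300 to 6129, 7551 to 9737 and 7514 to 8506. The lowest counts of SM16 minus TAN came without TAN replicate 1 (7 and 3315) and 2 (7 and 3456), and that of TAN minus G-MDSC without TAN replicate 2 (7). With the replicate block 10, 12, 11, 6, 11 and 8 member probes were called. Counts over all probes are not given here for that block, nor for TAN minus G-MDSC in the fits of 2 groups. Those member counts therefore do not describe the members in particular. Same-numbered arrays of different groups correlated at -0.326 to 0.255 in their deviations from group means, over 0.1 in 6 of 18 pairs, so they share only a number.

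Single probes changed sign as follows, and the cause was not tested. With median scaling B2m probes 1 and 2 gave -0.20 and -0.12 in SM16 minus TAN. Tap2 and Tapbp probe 1 gave -0.11 and -0.064 in SM16 minus NN. In SM16 minus G-MDSC H2-T23 probes 1 and 2 gave -0.038 and -0.35, B2m probes -0.015 and -0.10, Tap2 -0.63 and Psmb8 -0.11. With TAN replicate 4 alone H2-T23 probe 1, Psmb8 and Psmb10 probe 2 gave -0.0029, -0.59 and 0.025 in SM16 minus TAN. In TAN minus NN H2-K1 probe 1, H2-T23 probe 1, Tap1 and Psmb8 gave 2.76, 1.47, 2.09 and 1.89. In TAN minus G-MDSC H2-K1 probe 1, H2-D1, H2-T23 probe 1, Tap1, Psmb8 and Psmb9 gave 1.67, 0.69, 0.52, 1.04, 1.05 and -0.039. Tap1 in TAN minus NN gave 0.072 without background correction and 0.086 in the authors' table. Tapbp probe 2 gave -0.029 in SM16 minus NN with the replicate block, the set block or naive arrays of the same set, and 0.046 in G-MDSC minus NN with the last 2. With the set block H2-K1 probe 2, H2-T23 probe 2, Tap2 and Tapbp probe 2 gave 0.059, -0.048, -0.072 and -0.075 in SM16 minus G-MDSC. Leaving out 1 array, H2-K1 probe 1 and Tap1 ranged over -1.97 to 0.40 (0.38 without TAN replicate 2) and -1.07 to 0.59 (0.43 without TAN replicate 2) in TAN minus NN, and H2-D1 over -0.62 to 0.20 in TAN minus G-MDSC. Tapbp probes 1 and 2 ranged over -0.00080 to 0.20 and -0.21 to 0.57 in SM16 minus NN (-0.089 for probe 2 without SM16 replicate 1). H2-K1 probe 2 and Tap2 ranged over -0.20 to 0.079 and -0.034 to 0.16 in SM16 minus G-MDSC (-0.0090 for Tap2 without SM16 replicate 3). Psmb9 minus Psmb6 in SM16 minus NN gave -0.14 without background correction and -0.20 in the authors' table. Psmb8 minus Psmb5 gave -0.25 in SM16 minus TAN and 1.38 in TAN minus NN with TAN replicate 4 alone. Over all single-probe values under the alternatives, 1129 kept direction and side of the threshold, 99 lost a call, 32 gained one and 45 changed sign.

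Dim probes limit H2-K1 probe 2 on NN and Tapbp on TAN, and B2m lies near the top of the scale. With 3 TAN arrays that do not agree among themselves, no member call between SM16 and TAN was made with TAN replicate 4 alone, where Tap2 was -0.45 beside -0.67 with all 3.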
